A study of Mus musculus with 6 samples.

Results

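The mouse mitochondrial genome is a small circular DNA molecule, and the genes described here are all those that the count table places on it (chromosome M, chrM). They number 37 of the 54232 genes in the table, and 13 are mRNAs, 2 are rRNAs and 22 are tRNAs. Total RNA had been taken from whole testes of mice at postnatal day 4, in 3 samples labelled as conditional knockouts (cKO) of Dis3l2 and 3 labelled Dis3l2 WT. Both groups carry the strain label B6D2F1 inbred. The series set control against cKO testes to look for differential expression. Dis3l2 encodes a cytoplasmic exoribonuclease that degrades RNAs with an oligouridine tail. Neither the exons removed nor the driver of a Cre recombinase is named in the labels, nor whether each sample is its own animal. The p-values therefore measure only the spread between the samples, which may be technical.

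Each strand of mitochondrial DNA is transcribed as a long precursor by a dedicated RNA polymerase. tRNAs lie between most of the mRNAs and rRNAs, and their excision by RNase P and RNase Z releases the other RNAs, an arrangement known as tRNA punctuation. The mRNAs encode subunits of respiratory complexes I, III and IV and of the ATP synthase (complex V), and the rRNAs and tRNAs serve the mitochondrial ribosome. All other subunits and all factors for copying, transcribing and translating this genome are encoded in the nucleus.

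The libraries held 26126694, 34708401 and 35390560 counts in cKO and 41654998, 43265614 and 35750784 in WT. Dis3l2 itself had 30.6, 31.0 and 33.6 CPM (counts scaled to library size with TMM factors) in cKO, against 32.8, 31.0 and 32.1 CPM in WT. Whole-gene counts include exons outside a deleted part and cells without a deletion, so they do not check the genotype labels. In edgeR 8.34% of all genes tested were called, 3.40% higher and 4.94% lower in cKO. Of 12 germ cell marker genes 11 were tested, and 8 fell and 0 rose. Their summed level was 598 to 634 CPM in cKO and 1123 to 1187 CPM in WT, and each of the 12 had counts. Of 10 Sertoli cell markers 3 rose, and the sum was 4937 to 5481 CPM in cKO and 4331 to 4521 CPM in WT. Of 8 macrophage markers 4 rose, with 107 to 110 CPM in cKO and 79.9 to 88.3 CPM in WT, and of 6 Leydig cell markers 3 rose, with 476 to 526 CPM in cKO and 428 to 440 CPM in WT. Of 6 fat markers 4 were tested and 1 rose, with sums over the 6 of 30.4 to 38.5 CPM in cKO and 28.02 to 30.03 CPM in WT, and of 6 endothelial markers 1 rose, with 625 to 685 CPM in cKO and 585 to 601 CPM in WT. Red blood cell and myoid marker sums overlapped between the groups. In whole testes fewer cells of a type and less RNA per cell cannot be told apart, and the part of this shift in the results below was not tested.

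Selected sequences show the genes, their borders and their nuclear copies. They are read from GENCODE M21 transcripts on GRCm38, 5′ to 3′ on the strand of the gene. The first set holds 4 tRNAs, shown because they span the range of tRNA counts, with the anticodon in capitals. mt-Tl1, the tRNA with the most counts, lies between mt-Rnr2 and mt-Nd1 with 0 free bases on either side. mt-Tm precedes mt-Nd2 with 0 free bases, mt-Tp lies on the minus strand, and mt-Ty is the tRNA with 0 counts in all 6 libraries.
mt-Tl1 (leucine, chrM:2676-2750, plus strand): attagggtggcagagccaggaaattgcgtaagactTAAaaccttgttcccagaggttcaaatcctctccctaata
mt-Tm (methionine, chrM:3845-3913, plus strand): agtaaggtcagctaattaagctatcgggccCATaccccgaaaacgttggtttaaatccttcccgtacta
mt-Tp (proline, chrM:15356-15422, minus strand): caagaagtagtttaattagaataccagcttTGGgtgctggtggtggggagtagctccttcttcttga
mt-Ty (tyrosine, chrM:5260-5326, minus strand): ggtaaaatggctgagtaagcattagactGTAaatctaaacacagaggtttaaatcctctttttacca

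The second set shows how tightly mRNAs are packed. mt-Atp8 and mt-Atp6 share 43 bases, in which capitals mark the start codon of mt-Atp6 and the stop codon of mt-Atp8. mt-Co3, mt-Nd4 and mt-Cytb are the 3 of 13 mRNAs whose annotated end lies 1 base past the last whole codon. That final T, in capitals, is the start of a stop codon that is completed by the poly(A) tail.
mt-Atp8 and mt-Atp6 (chrM:7927-7969, plus strand): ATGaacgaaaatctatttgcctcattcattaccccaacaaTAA
mt-Co3 end (chrM:9366-9390, plus strand): gtctccatttattgatgaggatctT
mt-Nd4 end (chrM:11520-11544, plus strand): aaactaattacaggcctgacaataT
mt-Cytb end (chrM:15264-15288, plus strand): gacaaaatactaaaattatatccaT

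The third set compares mitochondrial genes with nuclear copies of mitochondrial DNA. A run of 7 annotated pseudogenes on chromosome 1 (chr1:24611535-24616197, GRCm38, minus strand) matched parts of chrM:6390-11042, each at 99.71% identity or higher over its aligned bases. The outermost matches bound a stretch of 4653 bases, called the copied stretch below. Sequence between the pseudogenes was not compared. The copied stretch holds 11 mitochondrial genes, 6 of them mRNAs and 5 tRNAs, and parts of mt-Co1 and mt-Nd4. The 5 tRNAs were not in the matches. The copy of mt-Nd3, Gm28438, differed from it by T3C over 345 aligned bases, counted from 1 at the first base of the gene. The copy of mt-Co1 on chromosome 2, Gm13340, differed at 37 of 1545 bases, of which C54A, A60G and G87A lie in the bases shown. Capitals mark the differing bases.
mt-Nd3 (chrM:9459-9539, plus strand): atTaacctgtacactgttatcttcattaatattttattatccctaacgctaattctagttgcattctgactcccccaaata
Gm28438 (chr1:24613039-24613119, minus strand): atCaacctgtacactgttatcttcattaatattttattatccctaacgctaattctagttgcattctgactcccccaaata
mt-Co1 (chrM:5328-5447, plus strand): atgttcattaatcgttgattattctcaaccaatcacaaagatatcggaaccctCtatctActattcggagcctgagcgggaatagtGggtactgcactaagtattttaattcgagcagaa
Gm13340 (chr2:22589528-22589647, minus strand): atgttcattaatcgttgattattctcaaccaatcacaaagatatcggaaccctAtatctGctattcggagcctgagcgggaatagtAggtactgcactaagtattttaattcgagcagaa

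Mitochondrial genes received 6291157 counts over the 6 libraries. The mRNAs held 81.3% of them, the rRNAs 18.4% and the tRNAs 0.305%. Levels between genes are compared per length, in CPM per kilobase of gene. Multi-mapped reads are left out while the full gene length is used, so the ranks are of counted reads, not of RNA abundance. mt-Nd1, a complex I subunit, had the highest mean level, 5411 ± 372 CPM per kilobase in cKO and 4812 ± 355 in WT (SD, n = 3 each). mt-Cytb, the complex III subunit cytochrome b, followed with 5363 ± 561 in cKO and 4607 ± 247 in WT. The means of these neighbours differed by less than the SD between libraries in either group. Within libraries mt-Nd1 was above mt-Cytb in each but cKO replicate 1, with 5661 against 5926 CPM per kilobase there. Below them stood mt-Co1, the catalytic subunit of complex IV, with 2987 ± 66 CPM per kilobase in cKO and 2978 ± 206 in WT. The small rRNA mt-Rnr1 had 2867 ± 113 CPM per kilobase in cKO and 2272 ± 107 in WT.

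**Figure D1:**
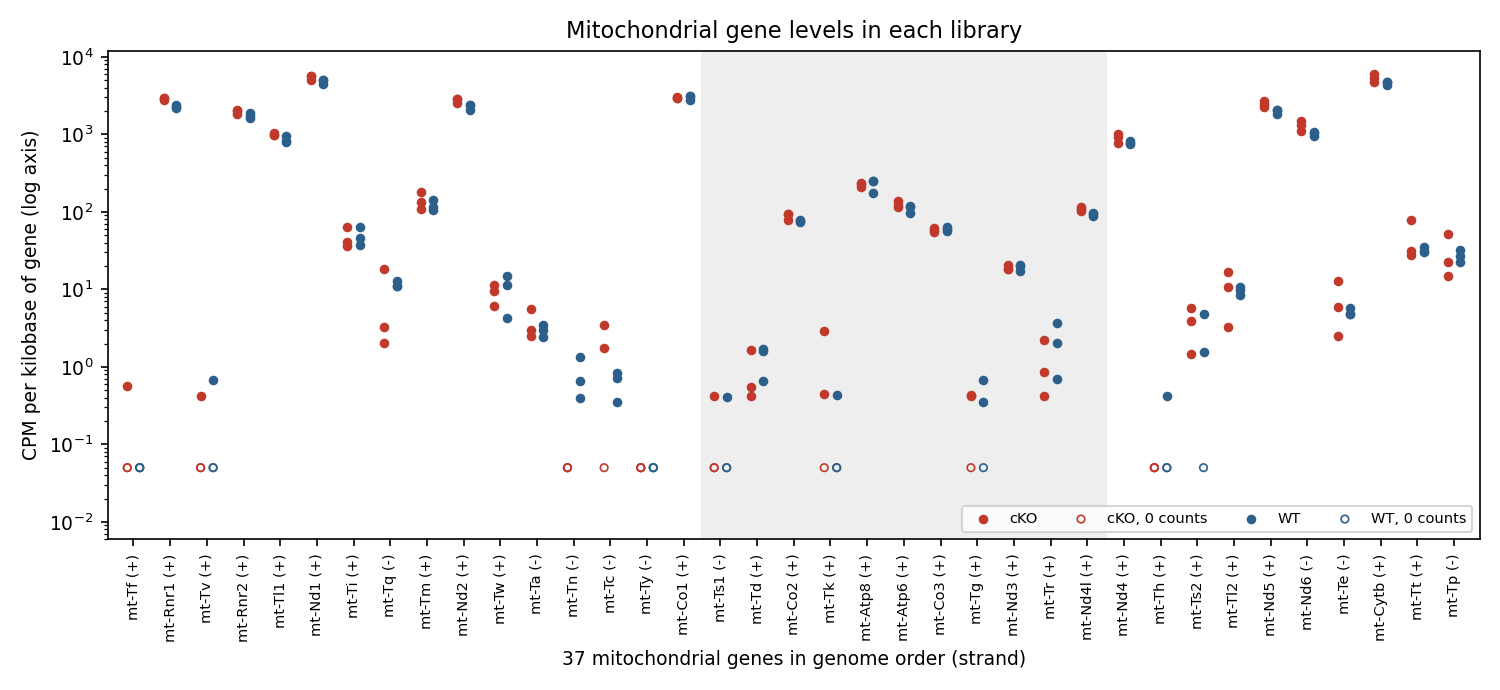
Level of each of the 37 mitochondrial genes in each library, in CPM per kilobase of gene on a log axis, in genome order with the strand in brackets. Filled points are libraries with counts, and open points are libraries with 0 counts drawn at a fixed height. The grey band spans the genes inside the stretch bounded by near-identical matches to chromosome 1 pseudogenes. The 6 mRNAs in the band average between 19.3 and 225 CPM per kilobase in cKO, and the 5 mRNAs outside it that the stretch does not touch average between 1294 and 5411.

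Position on the genome split the mRNAs by level. The 6 mRNAs inside the stretch copied on chromosome 1 averaged 19.3 to 225 CPM per kilobase in cKO and 19.2 to 226 in WT, and held 1.12% of the mRNA counts. The 5 mRNAs outside it averaged 1294 to 5411 CPM per kilobase in cKO and 1022 to 4812 in WT, and held 74.6%. These sets did not overlap in level in either condition. The deposited counts leave out multi-mapped reads, and the part of this in the levels was not tested. mt-Co1 and mt-Nd4, which the stretch covers in part, averaged 896 to 2987 CPM per kilobase in cKO and 782 to 2978 in WT. Every stretch of 50 bases of mt-Co2 was found in an annotated copy, as were 99.9% of those of mt-Co3, 98% of those of mt-Nd3 and 51.1% of those of mt-Co1, against 0% for mt-Nd1 and mt-Cytb. mt-Atp8 had 0% in annotated copies. Its last 43 bases, shared with mt-Atp6, lie in the copy Gm10925 but are fewer than the 50 compared. The rest falls between pseudogene models, and the chromosome 1 sequence there was not analysed here.

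The copies themselves held few counts. Multi-mapped reads are left out, so these counts do not show how much RNA comes from the copies. The 7 chromosome 1 copies together had 1617 counts over the 6 libraries, with 9 to 107 counts per copy and library. Gm28438 had 553 of these, Gm10925, a copy of mt-Atp6, had 346, and Gm28439, a copy of the first 876 bases of mt-Nd4, had 269. Gm13340 had 3.58, 3.80 and 3.53 CPM in cKO, against 4.02, 4.56 and 3.63 CPM in WT, and the groups overlapped. The copy of mt-Nd5 on chromosome 13, Gm4076, had 260 counts. Cep295 holds short matches to mt-Tl1 and mt-Tn within a gene of 29949 counts, which are counts of the whole gene.

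Of the 37 genes, 24 had enough counts to be tested, namely the 13 mRNAs, both rRNAs and 9 tRNAs. In the edgeR quasi-likelihood test, adjusted by Benjamini-Hochberg over all 20153 genes tested, 4 rose in cKO testes and 0 fell. Over all genes tested 8.34% were called, 3.40% higher and 4.94% lower. The 4 were mt-Rnr1, mt-Nd2, mt-Nd5 and mt-Nd6. Without the adjustment 11 had a p under 0.05 in the upward direction and 0 in the downward, DESeq2 called 5 higher and 0 lower, and limma-voom 4 higher and 0 lower. The 24 genes had a median log2 fold change (cKO over WT) of 0.19, against 0.0096 over all genes tested, and 19 of the 24 were fitted above 0, against 51.7% of all genes. In 7 of the 24 every cKO library was above every WT library, which 13.6% of all genes tested showed, and in 0 every cKO library was below, which 14.6% of all genes showed.

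**Figure D2:**
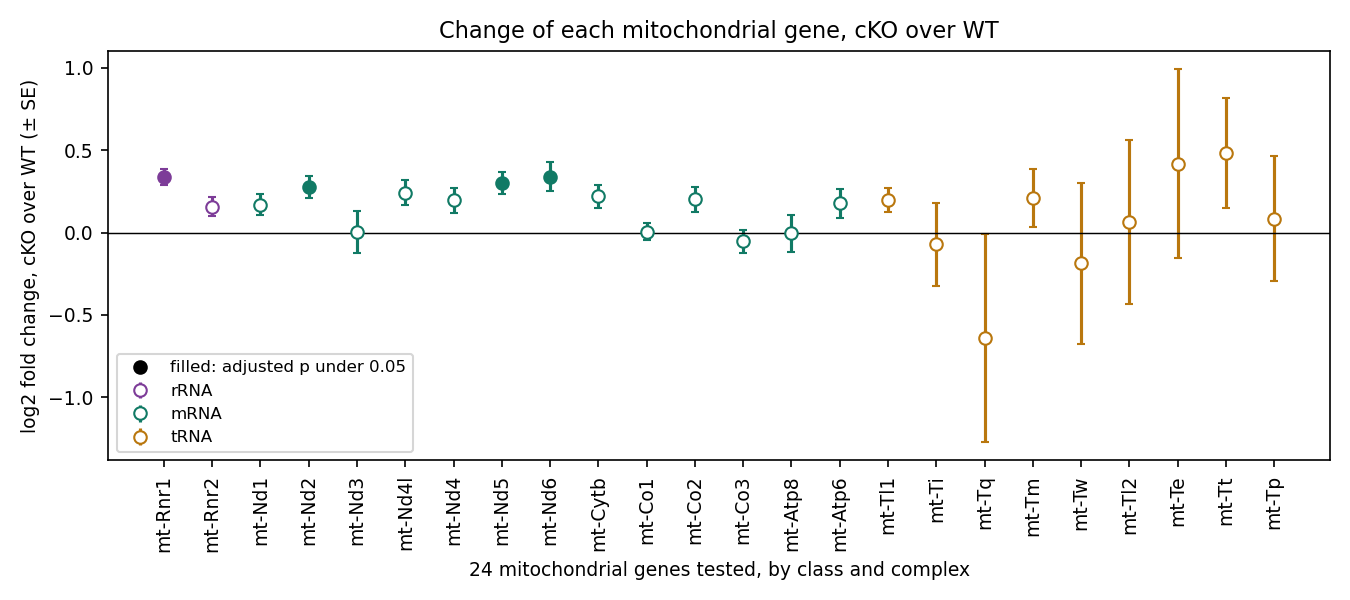
Log2 fold change of cKO over WT for the 24 tested mitochondrial genes, with the standard error of the edgeR fit. The 4 genes past the adjusted threshold, mt-Rnr1, mt-Nd2, mt-Nd5 and mt-Nd6, lie between 0.28 and 0.34.

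The rRNAs belong to the small and the large subunit of the mitochondrial ribosome, and they lie side by side on the plus strand with mt-Tv between them. mt-Rnr1 (12S rRNA, chrM:70-1024) had 2801, 2614 and 2799.7 CPM in cKO, against 2273, 2168 and 2068 CPM in WT. Each cKO library was above each WT library. Its log2 fold change of 0.34 (SE 0.05) had an edgeR adjusted p = 0.0014. It stayed past the threshold in all 14 alternatives, with values from 0.30 to 0.37. mt-Rnr2 (16S rRNA, chrM:1094-2675) had 3224, 2893 and 3166 CPM in cKO, against 2583, 2975 and 2766 CPM in WT. The groups overlapped through WT replicate 2, and the log2 fold change of 0.16 (SE 0.06) did not pass (edgeR adjusted p = 0.128).

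Counts of mt-Rnr1 per count of mt-Rnr2 were 0.869, 0.903 and 0.884 in cKO, against 0.880, 0.729 and 0.748 in WT. WT replicate 1 lay within the cKO range and the other WT libraries below it. Per the labels the libraries went through a step that depletes targeted transcripts, which are not named. Another transcript annotated as rRNA, CT010467.1 on chromosome 17, had 389, 268 and 339.6 CPM in cKO, against 98.9, 150.3 and 128 CPM in WT. It rose by 1.40 on the log2 scale (edgeR adjusted p = 0.000126, SE 0.14), and its part in the result for mt-Rnr1 was not tested. Gm42418, annotated as a long noncoding RNA and not as rRNA, had 3606, 5293 and 7004 CPM in cKO and 5175, 4465 and 4589 CPM in WT, which overlapped. Gm26917, with the same annotation, had 1330, 1869 and 2739 CPM in cKO and 2244, 2633 and 2944 CPM in WT. Its groups also overlapped, and its log2 fold change was -0.40 (edgeR adjusted p = 0.234). These nuclear genes were named after their values were seen.

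Complex I, which takes electrons from NADH, has 7 subunits encoded here, and 3 of their mRNAs rose, beside 3.40% of all genes tested. All 7 were fitted above 0, against 51.7% of all genes, with a median log2 fold change of 0.24. A difference between complex I and the other mRNAs was not tested. mt-Nd5, an antiporter-like subunit of the membrane arm, had 4858, 4494 and 4068 CPM in cKO, against 3315, 3794 and 3778 CPM in WT. Its log2 fold change was 0.30 (SE 0.07, edgeR adjusted p = 0.0172). mt-Nd2, another antiporter-like subunit, had 2994, 2975 and 2612 CPM in cKO, against 2139, 2471 and 2465 CPM in WT, with a log2 fold change of 0.28 (SE 0.07, edgeR adjusted p = 0.0230). For both genes the groups did not overlap, and cKO replicate 3 was the lowest cKO library and WT replicate 1 the lowest WT library.

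mt-Nd6 is the only mRNA on the minus strand, and its RNA has 28.1% G and 5.97% C. It had 763, 676 and 575 CPM in cKO, against 489.96, 565 and 537 CPM in WT. The lowest cKO library was just above the highest WT library in TMM-scaled CPM, but as a share of all counts the groups overlapped. The log2 fold change was 0.34 (SE 0.09, edgeR adjusted p = 0.0329). The calls of these 3 mRNAs depended on which libraries were used. The call of mt-Nd2 was lost without cKO replicate 2 and without each WT library (edgeR adjusted p = 0.0545 to 0.106), that of mt-Nd5 without cKO replicate 2, WT replicate 1 or WT replicate 2 (0.0547 to 0.0855), and that of mt-Nd6 without cKO replicate 2 or each WT library (0.0782 to 0.160).

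The other complex I mRNAs did not pass the test. mt-Nd4l had 32.4, 34.7 and 30.8 CPM in cKO, against 26.3, 28.5 and 27.9 CPM in WT, without overlap (log2 fold change 0.24, edgeR adjusted p = 0.0739). mt-Nd1 had 5418, 5348 and 4769 CPM in cKO, against 4213, 4777 and 4825 CPM in WT. mt-Nd4 had 1374, 1261 and 1067 CPM in cKO, against 1048, 1119 and 1066 CPM in WT. In both genes cKO replicates 1 and 2 were above all WT libraries and cKO replicate 3 was within the WT range. mt-Nd3 had the lowest counted level of the mRNAs, and 98% of its 50-base stretches lie in annotated copies. It had 7.24, 6.46 and 6.45 CPM in cKO, against 7.09, 5.99 and 7.0 CPM in WT. Its log2 fold change was 0.0034, and below 0 when libraries were scaled by their size alone.

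Outside complex I, edgeR called 0 of 6 mRNAs, beside 8.34% of all genes tested, so 0 calls are near that share. Of these mRNAs 2 had an unadjusted edgeR p under 0.05, and DESeq2 called 1 and limma-voom 0. Grouped by place instead, the median log2 fold change was 0.28 for the 5 mRNAs outside the copied stretch. It was 0.09 for the 6 inside the stretch and 0.10 for the 2 covered in part. The called mt-Nd2, mt-Nd5 and mt-Nd6 all lie outside it, and the part of place in the calls was not tested. mt-Cytb (complex III) had 6779, 6133 and 5495 CPM in cKO, against 4946, 5457 and 5409.8 CPM in WT. In TMM-scaled CPM the groups did not overlap. As a share of all counts they did, with 0.542% in cKO replicate 3 and 0.548% in WT replicate 2. The log2 fold change was 0.22 (SE 0.07, edgeR adjusted p = 0.0704). It passed in DESeq2 (adjusted p = 0.0321) and when genes with low counts were kept. When a library was left out the log2 fold change ranged from 0.14 to 0.29. The lowest value was without cKO replicate 1 and the highest without cKO replicate 3, and both passed (edgeR adjusted p = 0.0462 and 0.0076), while without any of the other libraries it did not (0.146 to 0.247). mt-Co1 had 4593, 4726 and 4525 CPM in cKO, against 4235, 4806 and 4762 CPM in WT. The groups overlapped. The fitted log2 fold change was 0.0042 (edgeR adjusted p = 0.974, SE 0.05), and its sign turned with library size alone as the scaling.

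Complex IV passes electrons to oxygen, and mt-Co2 encodes the subunit that takes them from cytochrome c. mt-Co2 had 63.7, 64.1 and 54.1 CPM in cKO, against 52.9, 51.0 and 54.2 CPM in WT (log2 fold change 0.20, edgeR adjusted p = 0.122). mt-Co3, which encodes a further core subunit, had 47.8, 46.1 and 42.8 CPM in cKO, against 44.4, 47.7 and 49.7 CPM in WT. Of the ATP synthase subunits, mt-Atp6 had 92.7, 83.2 and 78.8 CPM in cKO, against 65.2, 81.2 and 78.6 CPM in WT. mt-Atp8 had 46.5, 48.2 and 43.2 CPM in cKO, against 36.2, 50.5 and 51.7 CPM in WT. In mt-Co2, mt-Co3, mt-Atp6 and mt-Atp8 the groups overlapped.

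As mt-Co1 was abundant and fitted near 0, other abundant genes were also set against it within each library, a choice made after seeing the values and given without a test. Counts of mt-Nd5 per count of mt-Co1 were 1.06, 0.951 and 0.899 in cKO, against 0.783, 0.789 and 0.793 in WT. Counts of mt-Nd2 per count of mt-Co1 were 0.652, 0.63 and 0.577 in cKO, against 0.505, 0.514 and 0.518 in WT. Counts of mt-Cytb per count of mt-Co1 were 1.48, 1.30 and 1.21 in cKO, against 1.17, 1.14 and 1.14 in WT. These ratios, and those of mt-Nd1 and mt-Rnr1, were higher in every cKO library than in every WT library. A divisor fitted near 0 gives higher ratios for raised genes, so the ratios are no separate support. Annotated copies held 51.1% of the 50-base stretches of mt-Co1, 8.19% of mt-Nd2, 7.61% of mt-Nd5 and 0% of mt-Nd1, mt-Cytb and mt-Rnr1. Multi-mapped reads were left out, and the part of this in the ratios was not tested. The share of mt-Co1 in mitochondrial mRNA counts was 17%, 18.3% and 19.4% in cKO, against 20.5%, 20.7% and 20.6% in WT.

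**Figure D3:**
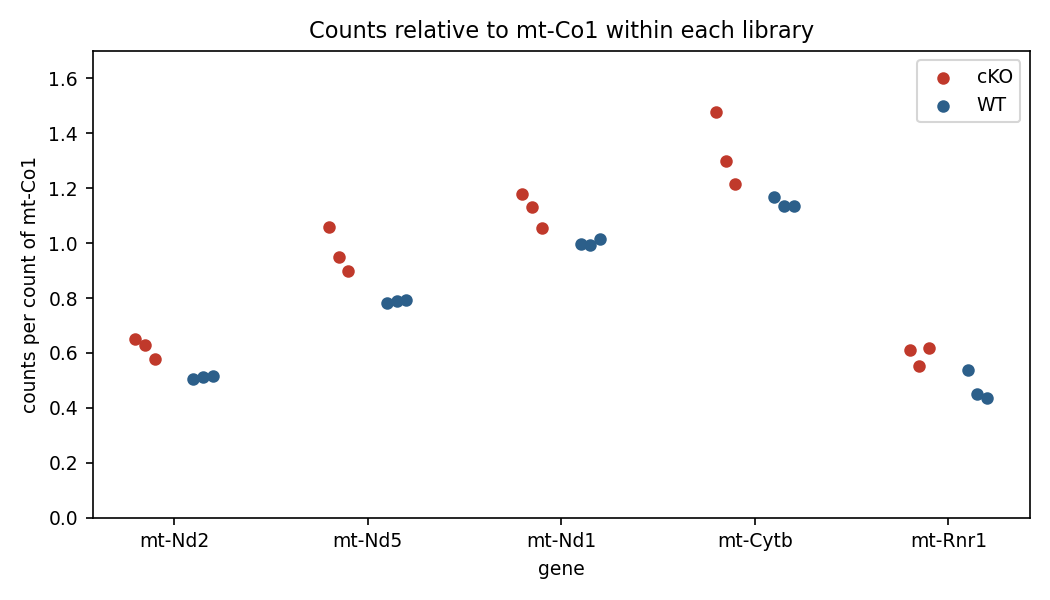
Counts of 5 abundant mitochondrial genes per count of mt-Co1 in each library, drawn as 1 point per library. The 3 WT libraries lie close together for mt-Nd1, mt-Nd2, mt-Nd5 and mt-Cytb, and every cKO library lies above them.

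Other pairs were set against each other in the same way. Counts of mt-Tl1 per count of mt-Nd1 were 0.0134, 0.0146 and 0.0153 in cKO, against 0.0148, 0.0126 and 0.0150 in WT, which overlapped. For the ratios that follow, mt-Nd2 and mt-Nd5 had been called and their divisors mt-Nd1 and mt-Cytb had not. Their ratios are therefore no separate support. Counts of mt-Nd2 per count of mt-Nd1 were 0.553, 0.556 and 0.548 in cKO, against 0.508, 0.517 and 0.511 in WT, and those of mt-Nd5 per count of mt-Cytb were 0.717, 0.733 and 0.740 in cKO, against 0.670, 0.695 and 0.698 in WT, both without overlap. The minus-strand mt-Nd6 per count of mt-Nd5, whose gene it meets on the opposite strand, was 0.157, 0.150 and 0.141 in cKO, against 0.148, 0.149 and 0.142 in WT, and these overlapped.

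With 3 samples a group the exact permutation test cannot go below p = 0.1, which is above the threshold for a call. None of the 6 shares tested could therefore pass, whatever their values, and the test does not decide whether they differ. The mitochondrial total and the rRNAs did not overlap between the groups. All 37 genes held 3.34%, 3.10% and 2.90% of the counts in cKO, against 2.58%, 2.86% and 2.81% in WT, without overlap. The rRNAs held 0.605%, 0.543% and 0.588% in cKO, against 0.490%, 0.516% and 0.485% in WT. The exact permutation test (two-sided) gave p = 0.1, the smallest possible with 3 samples a group, and an adjusted p = 0.4 over the 6 shares tested. The mRNAs held 2.72%, 2.55% and 2.30% in cKO, against 2.08%, 2.33% and 2.32% in WT, where cKO replicate 3 lay within the WT range (exact permutation p = 0.3, adjusted p = 0.45). On TMM-scaled CPM the mRNA sums were 27070.2, 25896 and 23366 in cKO, against 20619, 23254 and 23111 in WT, which did not overlap (exact permutation p = 0.1). The groups also did not overlap in the share of counts of the mRNAs outside the copied stretch, a set chosen after seeing the data (exact permutation p = 0.1). The tRNAs held 0.0104%, 0.00942% and 0.00869% in cKO, against 0.0080%, 0.00793% and 0.0094% in WT (exact permutation p = 0.2, adjusted p = 0.4).

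**Figure D4:**
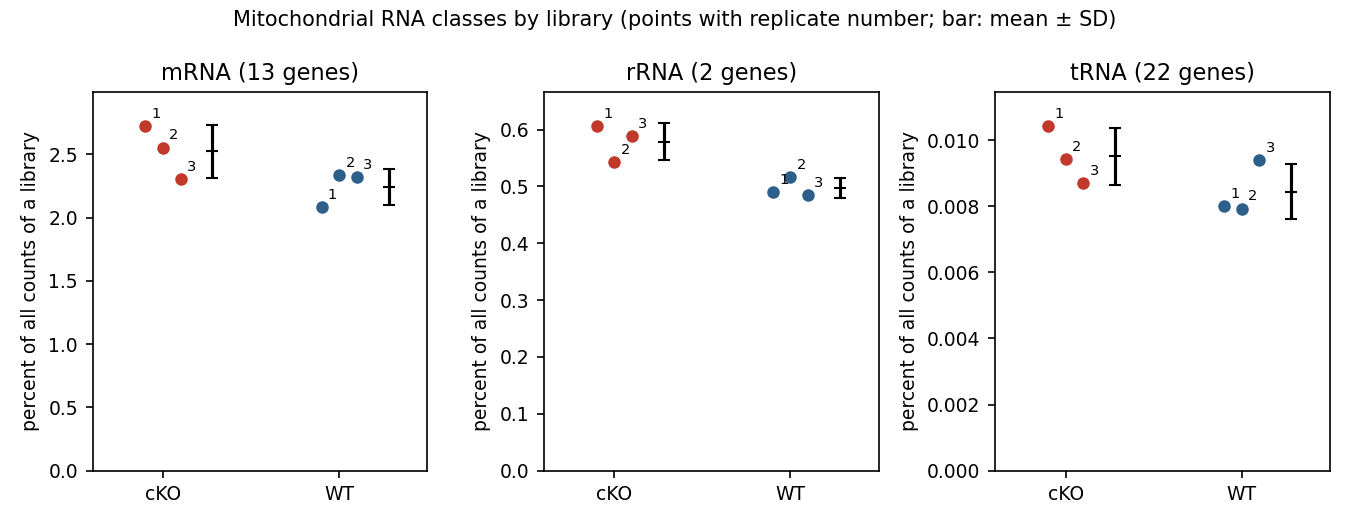
Percent of all counts of a library taken by the mitochondrial mRNAs, rRNAs and tRNAs, with replicate numbers at the points. The rRNA shares of the 3 cKO libraries lie above those of the 3 WT libraries, and the mRNA and tRNA shares overlap.

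The make-up of the mitochondrial counts was compared as well. The rRNAs made up 18.1%, 17.5% and 20.3% of mitochondrial counts in cKO, against 19.0%, 18.1% and 17.2% in WT (exact permutation p = 0.6, adjusted p = 0.72). The tRNAs made up 0.312%, 0.304% and 0.30% in cKO, against 0.310%, 0.277% and 0.334% in WT (exact permutation p = 1.0). For neither class were the groups apart. The plus strand carries 28 of the 37 genes and the minus strand 9, mt-Nd6 and 8 tRNAs. The minus-strand genes held 2.32%, 2.15% and 1.96% of mitochondrial counts in cKO, against 1.93%, 1.99% and 1.93% in WT (exact permutation p = 0.2, adjusted p = 0.4). The groups overlapped at cKO replicate 3, and nearly all of these counts came from mt-Nd6.

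Among the tRNAs, edgeR called 0 of 9 tested, beside 8.34% of all genes tested, so 0 calls are near that share. Of the 9, 1 had an unadjusted edgeR p under 0.05, and DESeq2 and limma-voom called 0 each. The other 13 tRNAs had 0 to 12 counts per library and 166 in all. mt-Ty had 0 counts in every library, which allows up to 3 counts, or 0.0693 to 0.115 CPM by library, for counting error only. mt-Tl1, a leucine tRNA, held 78.0% of the tRNA counts, and no other tRNA passed 350 counts in a library. It had 72.7, 78.3 and 72.9 CPM in cKO, against 62.4, 60.4 and 72.3 CPM in WT, without overlap (log2 fold change 0.20, edgeR adjusted p = 0.122). As a share of all counts its groups overlapped. In 11 tRNAs there is no free base on at least 1 side, and these counts do not tell a mature tRNA from its precursor. Reads over more than 1 gene are left out of the counts, also those that run from a tRNA into its neighbour. The tRNA values are therefore of counted reads, not of tRNA abundance, and the part of this rule in them was not tested.

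mt-Tm, the methionine tRNA, had 12.4, 9.12 and 7.48 CPM in cKO, against 7.19, 8.06 and 9.74 CPM in WT. mt-Tt, a threonine tRNA, had 5.22, 2.10 and 1.86 CPM in cKO, against 2.05, 2.33 and 2.09 CPM in WT. In both, cKO replicate 1 was above all other libraries. mt-Tq, the glutamine tRNA on the minus strand, had 1.30, 0.146 and 0.229 CPM in cKO, against 0.785, 0.783 and 0.921 CPM in WT, and its log2 fold change of -0.64 did not pass (edgeR adjusted p = 0.607). It was -2.12 without cKO replicate 1 (edgeR adjusted p = 0.0100), -0.17 without cKO replicate 2 (0.927) and -0.26 without cKO replicate 3 (0.876). The 8 minus-strand tRNAs summed to 6.25, 1.90 and 2.06 CPM in cKO, against 3.69, 3.25 and 3.04 CPM in WT. The 13 plus-strand tRNAs without mt-Tl1 summed to 24.7, 15.4 and 13.2 CPM in cKO, against 13.2, 15.4 and 18.4 CPM in WT. In both sums cKO replicate 1 was the highest library.

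The same library stood apart in genes known mainly from sensory neurons. The 1732 olfactory and vomeronasal receptor genes summed to 262, 49.7 and 45.2 CPM in cKO, against 122, 105 and 104 CPM in WT, with cKO replicate 1 the highest and the other cKO libraries the lowest, as for the minus-strand tRNAs. The part of this in the tRNA values was not tested.

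**Figure D5:**
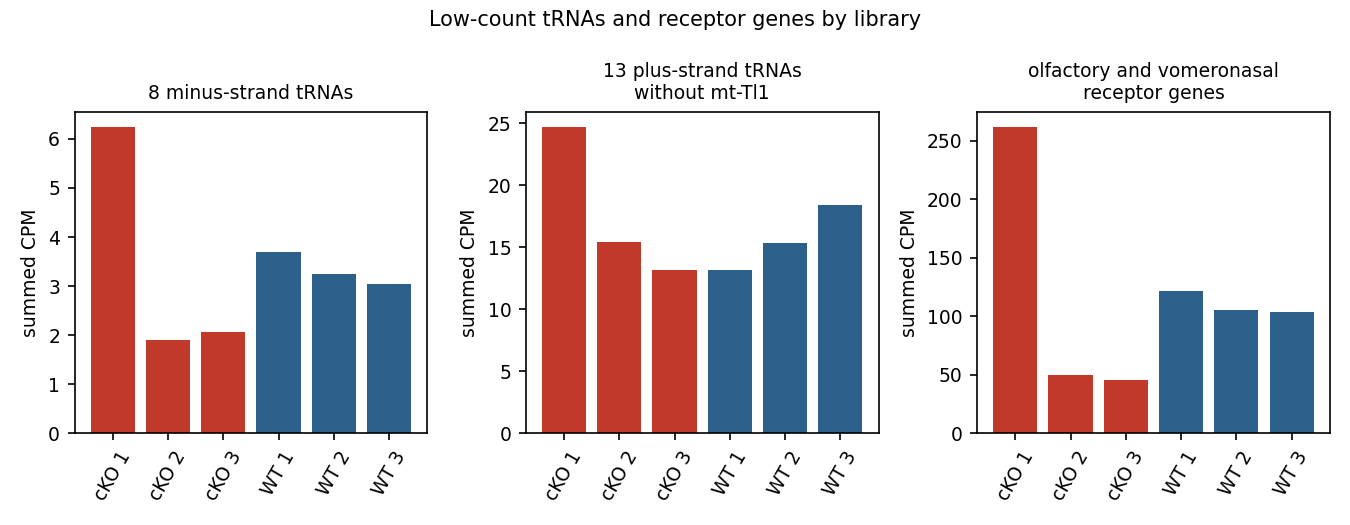
Bars give the summed CPM, in each library, of the 8 minus-strand tRNAs, the 13 plus-strand tRNAs without mt-Tl1, and 1732 olfactory and vomeronasal receptor genes. In all 3 panels cKO replicate 1 is the highest library, and in the first and last cKO replicates 2 and 3 are the lowest.

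The nuclear genes of mitochondrial gene expression were read against the 3.40% of all genes called higher and 4.94% called lower. Of 66 tested in 4 lists (transcription, RNA processing and decay, DNA copying, and regulators of mitochondrial number), 1 rose, 2 fell and 63 did not pass in edgeR. Their median log2 fold change was -0.05, with 5 upward and 10 downward at an unadjusted edgeR p under 0.05. The DNA copying list summed to 591 to 615 CPM in cKO and 621 to 655 CPM in WT. The regulators summed to 598 to 655 CPM in cKO and 688 to 696 CPM in WT. Sums of the other factor lists overlapped. Ptcd3, a protein of the small mitochondrial ribosomal subunit, rose to 75.9, 81.8 and 82.2 CPM in cKO, against 63.5, 60.1 and 62.7 CPM in WT (edgeR adjusted p = 0.0025, log2 fold change 0.37, SE 0.06). Trmt10c, a subunit of mitochondrial RNase P, had 27.0, 27.0 and 28.8 CPM in cKO, against 34.6, 35.7 and 34.4 CPM in WT, and fell by 0.34 on the log2 scale (SE 0.07, edgeR adjusted p = 0.0110). Trnt1, which adds the CCA end to tRNAs, had 35.6, 36.2 and 36.2 CPM in cKO, against 43.6, 42.7 and 43.1 CPM in WT, and fell by 0.26 (SE 0.06, edgeR adjusted p = 0.0226).

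Elac2, the mitochondrial RNase Z, had a log2 fold change of -0.23 (edgeR adjusted p = 0.0729), and Lrpprc, which stabilises mitochondrial mRNAs, of -0.16 (0.133). In both every cKO library was below every WT library, which 14.6% of all genes tested showed. Tfam, which packages and starts transcription of the genome, had a log2 fold change of 0.02 (edgeR adjusted p = 0.892). The polymerase Polrmt had 0.11 (0.547) and the polynucleotide phosphorylase Pnpt1 -0.05 (0.714). Of 72 nuclear subunits of complexes I, III, IV and V, 0 rose and 3 fell in edgeR, beside 3.40% higher and 4.94% lower over all genes. There were 8 upward and 3 downward at an unadjusted p under 0.05, and DESeq2 and limma-voom also called 0 higher and 3 lower. The complex V subunits summed to 3246 to 3339 CPM in cKO and 3137 to 3242 CPM in WT, and sums of the other complexes overlapped. The subunits that fell were Ndufc2 (-0.28, edgeR adjusted p = 0.0132), Ndufa13 (-0.30, 0.0368) and Cox4i1 (-0.21, 0.0471). The calls of both sets changed when single libraries were left out, with 1 to 7 factors and 0 to 6 subunits called.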

How the data were processed

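Whole-testis RNA of 3 cKO and 3 WT samples was compared. Per the labels' protocols, strand-selected cDNA libraries from total RNA had a targeted depletion step, while the molecule field names polyA RNA. Per the file headers, the authors deposited raw counts per gene (featureCounts 1.6.4, GENCODE M18, sense strand), without multi-mapped reads, without reads over more than 1 gene and not as pairs. The submitters' processing notes name cutadapt, HISAT2 and GRCm38.p5.

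Genes were kept with filterByExpr (minimum count 10, total 15), scaled by TMM and tested with the edgeR 4.0.16 quasi-likelihood test (R 4.3.3, no covariate), adjusted by Benjamini-Hochberg over 20153 genes and called under an adjusted 0.05. Fold changes put cKO over WT. Shares had exact permutation tests (two-sided, scipy 1.17.1), adjusted over 6. Copies were found with blastn 2.17.0 in GENCODE M21 transcripts (at least 90% identity over 60 bases). The edgeR fit was checked on simulated counts. Named are all 37 mitochondrial genes, Dis3l2, called factors and subunits (at most 6 per list), Tfam, Polrmt, Lrpprc, Elac2 and Pnpt1, and the 6 copies with the most counts. Members and lists were chosen with earlier results of these data known. Names came from GENCODE M21 for 54165 of 54232 genes. Alternatives used limma 3.58.1 and DESeq2 1.42.0. Totals of 26126694 to 43265614 counts set the precision.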

Additional observations from a re-analysis of the deposited data

How the results depend on the processing

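The cause of the changes below was not tested. The number of mitochondrial genes called was 7 with no filter on low counts and 4 as reported, and 1 to 8 when a library was left out: 8 without cKO replicate 1 (7 higher and mt-Tq lower) or cKO replicate 3, 2 without WT replicate 3, and 1 (mt-Rnr1) without cKO replicate 2, WT replicate 1 or WT replicate 2. Over all genes, 1681 were called and 623 to 3375 when a library was left out, with 623 without WT replicate 2 and 3375 without cKO replicate 1. Factors called were 5 under library size alone and 5 in DESeq2, against 3, and 1 to 7 with a library left out, and subunits 0 to 6. Same-numbered samples deviated together only with correlations of 0.0126 to 0.0652, which do not settle whether the numbers pair the samples. With the replicate number as a block 4 mitochondrial genes and 1798 genes in all were called, and each cKO library correlated best with the WT library of its own number, a hint from the data only. The minus-strand share reversed to -0.21 (log2) with tRNAs alone, where the minus strand held 706 counts over the 6 libraries. With mRNAs alone it was 0.15, with means of 2.63% in cKO and 2.38% in WT and no overlap (exact permutation p = 0.1). The rRNA share of mitochondrial counts ranged from -0.023 to 0.086 on the log2 scale and the tRNA share from -0.079 to 0.054 with a library left out. Log2 fold changes of single genes reversed as follows: mt-Co1 was -0.015 under library size alone and -0.0059 with no filter, mt-Nd3 -0.016 and -0.0067, mt-Atp8 0.014 in limma-voom and 0.0072 with the block, mt-Tl2 -0.25 and -0.072, and mt-Tp -0.16 and -0.024. With a library left out, mt-Co1 ranged from -0.052 to 0.038, mt-Nd3 from -0.071 to 0.048, mt-Atp8 from -0.15 to 0.084, mt-Tl2 from -0.46 to 0.50, mt-Tp from -0.56 to 0.41, mt-Ti from -0.35 to 0.16, mt-Tm from -0.0041 to 0.36, mt-Tw from -0.56 to 0.19, mt-Te from -0.29 to 0.83 and mt-Tt from -0.12 to 0.74. Shares with each rRNA alone, without mt-Tl1 or without genes of the copied stretch, chosen after seeing the data, kept their direction. At 0 to 12 counts per library, 13 tRNAs had too few counted reads to test, and reads over more than 1 gene were left out. Over all alternatives for the 24 tested mitochondrial genes, 280 values kept direction and side of the threshold, 29 reversed, 12 gained a call and 11 lost one.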
